A study of Homo sapiens with 8 samples.

Results

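Cadherins and beta-catenin were followed in LX-2 cells, an immortalized human hepatic stellate cell (HSC) line, as their growth matrix and time in culture varied. The genes were 8 cadherins (CDH1, CDH2, CDH3, CDH4, CDH6, CDH10, CDH11 and CDH13) and CTNNB1, the gene of beta-catenin, 9 of the 25369 genes in the count and FPKM tables. They were chosen by name, with results of the same libraries already known, among them the values of CDH4, CDH10, CDH2 and CTNNB1. Their test results are therefore descriptions taken from a fit of the whole table, and no test was run over the list. Polyacrylamide hydrogels coated with fibronectin served as the matrix, either soft (2 kPa) or stiff (40 kPa), and wild-type LX-2 cells were collected after 2 or 4 days on them. Each of the 4 conditions had 2 RNA-seq libraries, 8 in all, and all came from the same cell line. The study set out to learn how matrix stiffness shapes gene expression in HSCs.

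Cadherins are calcium-dependent adhesion proteins that join neighbouring cells by binding cadherins on the opposite membrane. The classical members carry a cytoplasmic tail that binds beta-catenin, which in turn binds alpha-catenin and so connects the junction to actin, while p120-catenin holds the cadherin at the membrane. Beta-catenin that is not bound at junctions or degraded acts in the nucleus in Wnt signalling. E-cadherin (CDH1) is typical of epithelia and N-cadherin (CDH2) of mesenchymal cells, HSCs and myofibroblasts among them.

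The libraries held between 19955975 and 27263935 counts in genes. All 4-day libraries, at 21939634 counts or fewer, were shallower than all 2-day libraries, at 23257314 or more. The coefficient of variation between the libraries of a condition, from edgeR, was 4.11% to 12.2% in the first 3 conditions. At 4 days on the stiff matrix it was 31.2%. For the tested cadherins and for called genes of the lists, values that depend on either library of that condition are therefore also given without it. Any fit without a library leaves a single library in that condition and takes its spread from the other conditions. The p-values and calls of such a fit measure no spread within that condition and are descriptions only. Of the 9 stellate cell and myofibroblast markers, 7 reached 10 counts in a library, with a summed level of 1300 to 1755 FPKM at 2 days and 2251 to 3636 FPKM at 4 days. Most of that sum was VIM, at 921 to 1297 FPKM and then 1851 to 2938 FPKM. TAGLN had 218 to 307 FPKM at 2 days and 253 to 601 FPKM at 4 days, whereas COL1A1 had 142 to 172 FPKM and then 83.9 to 125 FPKM. DES and LRAT did not pass the filter on low counts. Epithelial markers summed to at most 5.69 FPKM and hepatocyte markers to at most 2.99 FPKM, with GRHL2 and TTR at 0 in every library. Endothelial markers summed to 17.7 to 20.1 FPKM at 2 days and 11.9 to 14.1 FPKM at 4 days, nearly all of it TIE1. RNA of a whole culture was measured, so more expressing cells and more RNA per cell cannot be told apart.

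Within the family, CDH2 was the most abundant cadherin in every library (levels per transcript length, in FPKM). CDH13 lay above CDH4 in both soft 2-day libraries, with the groups of the 2 genes not overlapping, and CDH4 lay above CDH13 in all others. CDH2 ranged from 55.4 to 79.8 FPKM, CDH4 from 15.2 to 37.2 FPKM and CDH13 from 17.3 to 29.0 FPKM. CDH11 stood at 0.758 to 1.84 FPKM, and CDH6 and CDH10 were below 1 FPKM in all libraries. CTNNB1 was higher than any cadherin, at 98.3 to 119 FPKM.

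CDH1 and CDH3 had too few counts to be tested. CDH1, which encodes E-cadherin on chromosome 16 of GRCh37 (68771195 to 68869440), had 3 counts over the 8 libraries, 1 each in a soft 2-day, a stiff 2-day and a stiff 4-day library, and 0 in the other 5. CDH3, which encodes P-cadherin on the same chromosome (68670092 to 68761371), had 6 counts, of which 4 fell in the soft 2-day libraries, and 0 in 4 libraries. A count of 3, the limit that a count of 0 allows, correspond to 0.0219 to 0.0354 FPKM for CDH1 and to 0.0246 to 0.0399 FPKM for CDH3. Over all libraries and per length, CDH2 exceeded CDH1 by a ratio of 20064 (95% counting interval 6865 to 97296) and CDH3 by a ratio of 8909 (4093 to 24278). These intervals cover counting error only. The tested gene with the fewest counts among the 9 was CDH6, with 105 in all. No difference between conditions in CDH1 or CDH3 was detectable at this depth.

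**Figure D1:**
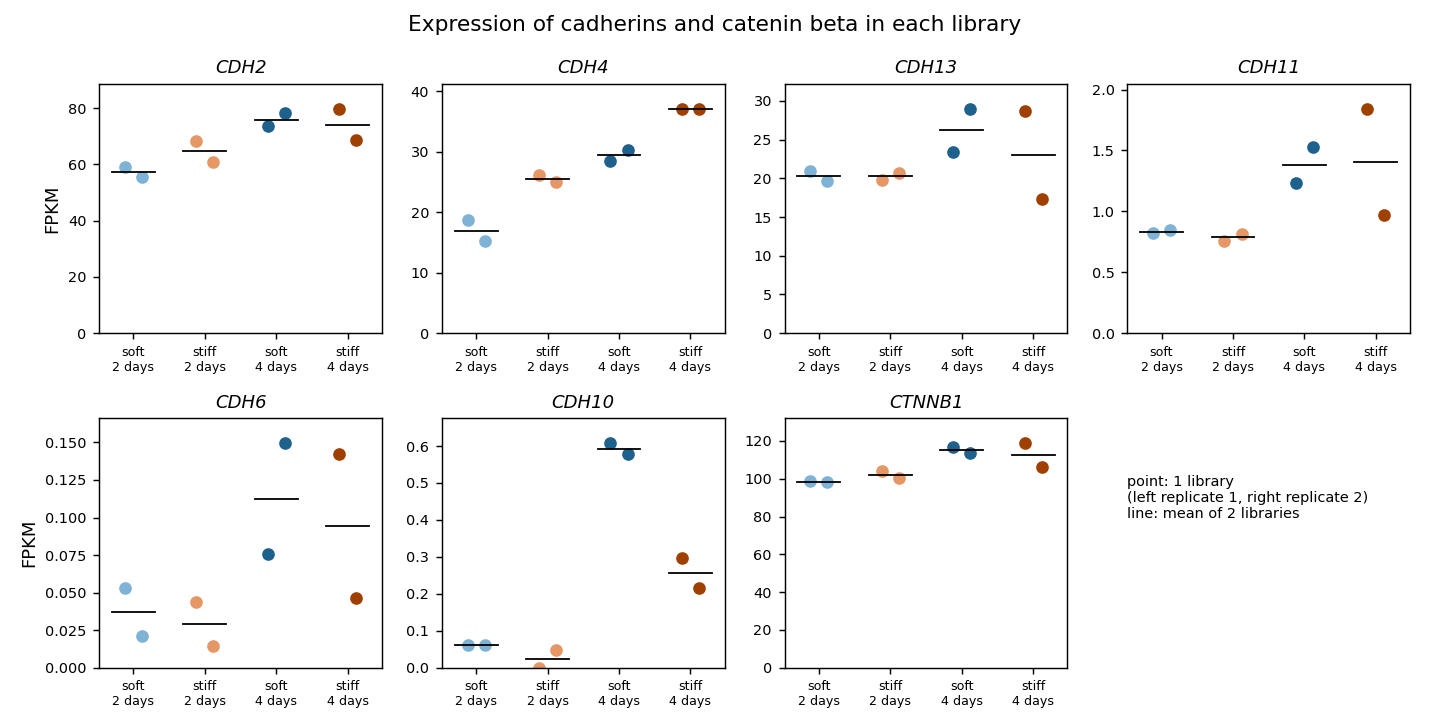
Level in FPKM (vertical axes from 0, a scale for each gene) of the 7 tested genes in each library, by condition; points are libraries and lines the means of 2. CDH4 climbs through the 4 conditions without overlap, from 15.2 to 37.2 FPKM, whereas the stiff 4-day libraries of CDH13 lie far apart, at 28.7 and 17.3 FPKM.

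CDH2, the gene of N-cadherin on chromosome 18 of GRCh37 (25512843 to 25757910), was not called in any comparison by the edgeR fit of all libraries. Its levels were 59.2 and 55.4 FPKM on the soft matrix at 2 days, 68.2 and 60.9 FPKM on the stiff matrix at 2 days, 73.5 and 78.1 FPKM on the soft matrix at 4 days, and 79.8 and 68.5 FPKM on the stiff matrix at 4 days. The matrices did not overlap at 2 days and overlapped at 4 days. The log2 fold change of stiff against soft was 0.17 (standard error 0.140) at 2 days and -0.04 (standard error 0.140) at 4 days. Between 2 and 4 days the log2 fold change was 0.42 on the soft matrix (standard error 0.141, adjusted p = 0.0592) and 0.21 on the stiff matrix (standard error 0.141, adjusted p = 0.287), from the quasi-likelihood F test of edgeR, adjusted by Benjamini-Hochberg over the 14570 genes tested. On the soft matrix the difference was called by DESeq2 (adjusted p = 0.0316), by an edgeR fit of the soft libraries alone (adjusted p = 0.00994) and by edgeR without stiff 4-day replicate 1 or 2 (adjusted p = 0.00353 and 0.00351).

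CDH4, the gene of R-cadherin on chromosome 20 of GRCh37 (59827317 to 60515673), rose between 2 and 4 days on both matrices and was higher on the stiff matrix in every library of each day. Its levels were 18.7 and 15.2 FPKM on the soft matrix at 2 days, 26.2 and 24.9 FPKM on the stiff matrix at 2 days, 28.5 and 30.4 FPKM on the soft matrix at 4 days, and 37.15 and 37.17 FPKM on the stiff matrix at 4 days. It was the only one of the 7 tested genes whose 4 conditions stood in this rising order with no overlap, a pattern found in 1.66% of all genes tested. The mean rose from 17.0 ± 2.51 to 29.5 ± 1.31 FPKM on the soft matrix and from 25.6 ± 0.859 to 37.2 ± 0.0151 FPKM on the stiff matrix (SD, n = 2 each).

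In the edgeR fit, the time difference of CDH4 was 0.81 on the log2 scale on the soft matrix (standard error 0.143, adjusted p = 0.00707) and 0.55 on the stiff matrix (standard error 0.142, adjusted p = 0.0254). The stiff against soft difference was 0.59 at 2 days (standard error 0.143, adjusted p = 0.976), 0.33 at 4 days (standard error 0.142, adjusted p = 0.719) and 0.46 averaged over both days (standard error 0.101, adjusted p = 0.166), none of which passed Benjamini-Hochberg adjustment. A fit of the 2-day libraries alone called the 2-day difference (log2 fold change 0.58, adjusted p = 1.06e-05), and DESeq2 called the average over days (0.46, adjusted p = 0.00445). Without stiff 4-day replicate 1 the edgeR fit called the 2-day difference and the average (adjusted p = 0.0124 and 0.00189), and without replicate 2 likewise (0.0113 and 0.00266). From 2 to 4 days, the effect of stiffness on CDH4 differed by -0.26 (standard error 0.201, edgeR adjusted p = 0.9997).

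The time difference of CDH4 stayed positive without any single library, at 0.67 to 0.97 on the soft and 0.52 to 0.59 on the stiff matrix, but not always past the cutoff. On the soft matrix the edgeR adjusted p became 0.0628 without soft 2-day replicate 2, 0.0503 without soft 4-day replicate 1 and 0.0595 without soft 4-day replicate 2. On the stiff matrix it became 0.133 and 0.191 without stiff 2-day replicate 1 or 2, and 0.0574 and 0.0548 without soft 4-day replicate 1 or 2. Leaving out stiff 4-day replicate 1 or 2 gave 0.00196 and 0.00289. The stiff matrix difference also missed the cutoff with the replicate number as a block (edgeR adjusted p = 0.0597), without scaling factors (0.0619) and in a fit of the stiff libraries alone (0.111), and was called in the other 7 of 10 settings. The 2 stiff 4-day libraries, which differed by a median factor of 1.39 over the genes tested, differed by a factor of 1.0006 in CDH4.

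CDH10, a type II cadherin known mainly from the nervous system and encoded on chromosome 5 of GRCh37 (24487209 to 24645087), had the largest fold change with time, from near 0. Its raw counts were 6 and 6 on the soft matrix at 2 days, 0 and 4 on the stiff matrix at 2 days, 45 and 45 on the soft matrix at 4 days, and 21 and 13 on the stiff matrix at 4 days. The 4 conditions did not overlap, and in FPKM the 4-day means were 0.593 ± 0.0206 on the soft and 0.256 ± 0.0587 on the stiff matrix (SD, n = 2 each). CDH10 passed the filter on low counts only through its 4-day libraries, so that a difference between days is partly built into its being tested. Scaled for depth, its summed counts were higher at 4 days by a ratio of 9.54 on the soft matrix (95% counting interval 5.20 to 19.2) and of 10.6 on the stiff matrix (3.80 to 41.3). All counting intervals of CDH10, those between the matrices below among them, cover counting error only and leave out the spread between libraries.

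The edgeR log2 fold change of CDH10 with time was 3.24 on the soft matrix (standard error 0.559, adjusted p = 0.00659) and 3.34 on the stiff matrix (standard error 0.745, adjusted p = 0.0159). Without soft 2-day replicate 1 or 2 the adjusted p on the soft matrix became 0.0926 and 0.0651, and without stiff 2-day replicate 1, the library with 0 counts, the stiff matrix value became 2.38 with an adjusted p of 0.0692. Without stiff 2-day replicate 2 the group held only the library with 0 counts, and the fitted 7.37 (edgeR adjusted p = 0.0358) is no bound. Without stiff 4-day replicate 1 or 2 the stiff matrix values were 3.08 and 3.53, with adjusted p of 0.00636 and 0.00138. A fit of the stiff libraries alone gave an adjusted p of 0.0954. On the stiff matrix CDH10 was lower than on the soft matrix at both days, with a count ratio of 0.393 at 2 days (95% counting interval 0.0924 to 1.30) and 0.438 at 4 days (0.286 to 0.657), but neither difference was called by edgeR (log2 fold changes -1.29 and -1.20, standard errors 0.890 and 0.484, adjusted p = 0.9999 and 0.682). CDH4 and CDH10 had stiff against soft log2 fold changes of opposite sign at both days.

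Sequences upstream of transcript starts in these genes are shown because the study concerns AP-1, a transcription factor with a known short motif. CDH4 and CDH10 were also the genes called between days with all libraries in the fit. RefSeq windows of GRCh38.p14 were searched on both strands over the 250 bases before the transcription start for AP-1 (TGANTCA), TEAD (GGAATG) and an E-box bound by SNAI and ZEB repressors (CAGGTG), whose letters do not contain one another. Windows were found for CTNNB1 and CDH10, and a pair of windows each for CDH2 and CDH4. Such a start need not be the main start of the gene. The second CDH2 window lies downstream of the first (28177131 to 28177380) on the gene's strand, so its start is an internal one. The second CDH4 window (61599511 to 61599760) likewise lies downstream of the first on the gene's strand, so its start is an internal one. Whether the first CDH4 window precedes the main start was not checked, as the gene positions given here are of GRCh37. Capitals mark the matches, and the sequences read 5′ to 3′ on the gene's strand.
CDH10, chr5:24644979-24645228, minus strand, no match: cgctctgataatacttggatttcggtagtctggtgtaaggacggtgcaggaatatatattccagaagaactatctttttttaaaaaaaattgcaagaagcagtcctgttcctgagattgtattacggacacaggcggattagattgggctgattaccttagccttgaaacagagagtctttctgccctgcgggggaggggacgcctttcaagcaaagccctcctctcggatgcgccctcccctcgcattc
CDH4, first window, chr20:61499171-61499420, plus strand, 1 E-box: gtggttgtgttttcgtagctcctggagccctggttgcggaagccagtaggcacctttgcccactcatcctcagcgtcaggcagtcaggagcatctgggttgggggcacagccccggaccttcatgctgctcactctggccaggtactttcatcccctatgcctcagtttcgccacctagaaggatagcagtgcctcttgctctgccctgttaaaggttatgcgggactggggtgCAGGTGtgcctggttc
CDH2, second window, chr18:28036642-28036891, minus strand, 1 AP-1 motif: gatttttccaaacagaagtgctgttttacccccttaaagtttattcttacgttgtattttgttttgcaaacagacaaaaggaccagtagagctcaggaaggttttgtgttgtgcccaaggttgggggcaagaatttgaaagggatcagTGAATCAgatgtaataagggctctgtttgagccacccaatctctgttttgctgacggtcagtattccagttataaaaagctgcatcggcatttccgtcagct
The window of CTNNB1, the other window of CDH2 and the other window of CDH4 held none of the 3 motifs. Among all 35116 windows of this length, 6.57% held the AP-1 letters, 11.9% the TEAD letters and 17.5% the E-box letters. GC content was 47.6% in the CDH10 window, 58.4% in the first CDH4 window, 42% in the second CDH2 window and 74.4% in the CTNNB1 window, against a median of 58% over all windows. A match is a run of letters and was not tested for binding.

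The 3 other tested cadherins of the set were closer to the spread between libraries. CDH13, the gene of T-cadherin (chromosome 16, 82660570 to 83834245), which is held in the membrane by a GPI anchor and has no tail to bind catenins, had 20.9 and 19.7 FPKM on the soft matrix after 2 days, beside 19.8 and 20.7 FPKM on the stiff matrix. At 4 days it had 23.4 and 29.0 FPKM on the soft matrix and 28.7 and 17.3 FPKM on the stiff matrix. The stiff 4-day libraries spanned nearly the whole range. The stiff against soft log2 fold change at 4 days was -0.19 (standard error 0.232, edgeR adjusted p = 0.894). It was -0.59 without stiff 4-day replicate 1 and 0.13 without replicate 2. The difference of CDH13 between days on the stiff matrix, 0.20 (standard error 0.232), likewise changed from -0.21 to 0.51 as replicate 1 or 2 was left out.

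CDH11, the gene of OB-cadherin (chromosome 16, 64977656 to 65160015), which is known from osteoblasts and fibroblasts, had 0.818 and 0.849 FPKM on the soft and 0.758 and 0.816 FPKM on the stiff matrix at 2 days. At 4 days the values were 1.23 and 1.52 FPKM on the soft and 1.84 and 0.966 FPKM on the stiff matrix, all above the 2-day libraries. The log2 fold change with time was 0.75 on the soft and 0.86 on the stiff matrix (standard errors 0.304 and 0.310), neither past the cutoff (edgeR adjusted p = 0.105 and 0.0759). Without stiff 4-day replicate 1 or 2 the soft matrix value was 0.73 and 0.72, and the stiff matrix value 0.31 and 1.23. CDH6, the gene of K-cadherin (chromosome 5, 31193793 to 31329253), had 13 and 5 counts on the soft and 9 and 3 on the stiff matrix at 2 days, and 14 and 29 on the soft and 25 and 7 on the stiff matrix at 4 days. Replicates of CDH6 differed by factors of 1.97 to 3.06 in FPKM, and its time differences of 1.60 and 1.70 had standard errors of 0.722 and 0.798 (edgeR adjusted p = 0.135 and 0.146). Only 1 of the 2-day libraries of CDH6 reached the level of the filter, so that it too was tested on account of its 4-day libraries.

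CTNNB1, on chromosome 3 of GRCh37 (41236232 to 41301587), had the narrowest range for its level among the tested genes. Its levels were 98.7 and 98.3 FPKM on the soft and 104 and 100 FPKM on the stiff matrix at 2 days, and 117 and 113 FPKM on the soft and 119 and 106 FPKM on the stiff matrix at 4 days. All 4-day libraries lay above all 2-day libraries, while the matrices overlapped at 4 days. The log2 fold change with time was 0.24 on the soft (standard error 0.126, edgeR adjusted p = 0.187) and 0.15 on the stiff matrix (standard error 0.126, edgeR adjusted p = 0.398). Stiff against soft, it was 0.05 at 2 days and -0.04 at 4 days, each with a standard error of 0.126. In neither comparison was CTNNB1 called by any of the alternative fits or without any library.

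**Figure D2:**
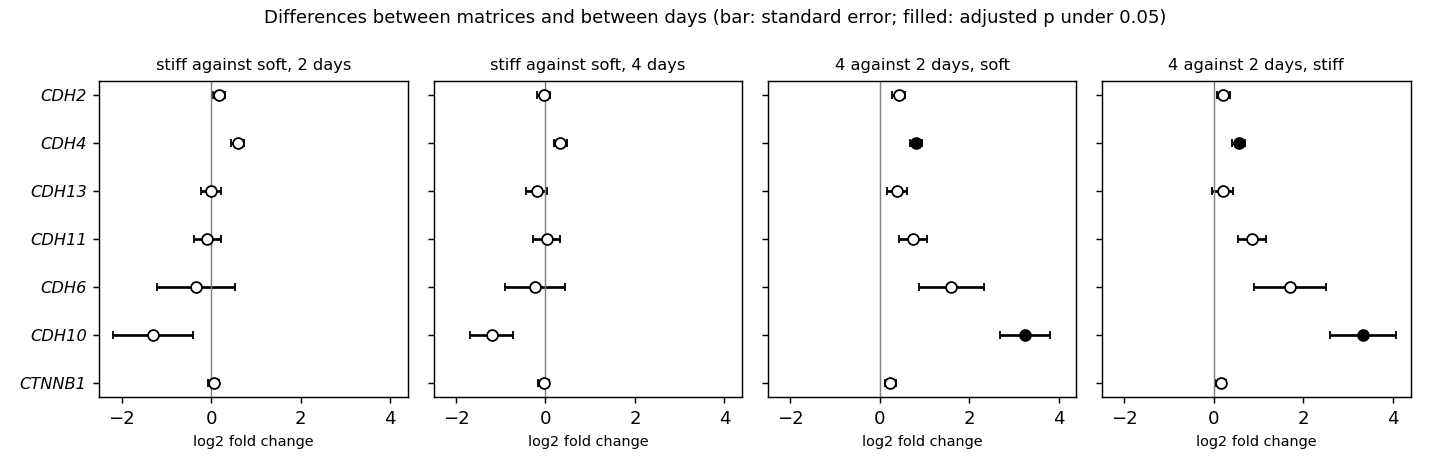
Log2 fold change (horizontal axis) of the 7 tested genes in 4 comparisons from the edgeR fit, with bars of 1 standard error and filled points for an adjusted p under 0.05. CDH4 and CDH10 are filled in both comparisons of days, CDH10 having been tested only on account of its 4-day libraries, and no point is filled in the comparisons of matrices.

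Counted over the 7 tested genes, 0 were called for stiff against soft at 2 days (0% of all genes tested, with 2.82% at an unadjusted p under 0.05), 0 at 4 days (0.247% of all genes), 0 averaged over days (0.426%) and 0 for the change of the stiffness effect (0%, with 1.95% unadjusted). At an unadjusted p under 0.05 in the edgeR fit, CDH4 passed at both days and averaged over days, and CDH10 at 4 days and averaged over days. Of all genes, 2.82% passed at 2 days, 6.93% at 4 days and 7.7% averaged over days. Between days, counts are given for the 5 genes that reached the level of the filter in at least 2 libraries of each day, which leaves out CDH6 and CDH10. Of these 5, 1 was called on the soft matrix (27.4% of all genes) and 1 on the stiff matrix (27.6%), CDH4 in both. Without stiff 4-day replicate 1, 4 of 5 were called on the soft matrix, CDH2, CDH4, CDH11 and CDH13, where 52.9% of all genes were, and 1 on the stiff matrix, where 52.1% of all genes were. Without replicate 2, the same 4 of 5 were called on the soft matrix (52.7% of all genes) and CDH4, CDH11 and CDH13 on the stiff matrix (43.8%). Without replicate 1, CDH13 was also called lower on the stiff matrix averaged over days (-0.30, edgeR adjusted p = 0.0287), where 19.8% of all genes were called, and for the change of that effect between days (-0.58, edgeR adjusted p = 0.0309), where 20.9% were. The 5 genes had a median log2 fold change between days of 0.42 on the soft and 0.21 on the stiff matrix, beside medians of 0.02 and 0.03 over all genes tested. Both 4-day libraries lay above both 2-day libraries in 5 of 5 genes on the soft matrix (37.4% of all genes), in 4 of 5 on the stiff matrix (30.8%) and in the same 4, all but CDH13, on both (26.6%). Both stiff libraries lay above both soft libraries at 2 days for CDH2, CDH4 and CTNNB1 (26% of all genes) and below them for CDH10 and CDH11 (22.4%), and at 4 days above them for CDH4 (12.2%) and below them for CDH10 (13.6%). The comparisons of matrices and of days share libraries. The part of the shallower 4-day libraries and of the higher VIM and lower TIE1 levels at 4 days in these differences was not tested.

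The make-up of the cadherin family was set beside these levels by summing the FPKM of the 8 cadherins and 15 others of the classical, type II and related groups. Of these 15, only CDH18, CDH20 and CDH24 passed the filter, and the other 12 had between 0 and 13 counts in a library, with 2 at 0 throughout. CDH2, CDH4, CDH13 and CDH24 made up 97.5% to 98.6% of the sum in every library. CDH2 made up 49.8% to 53.4% in all libraries. The share of CDH4 was 16.1% and 14.2% on the soft matrix at 2 days, 20.3% and 20.4% on the stiff matrix at 2 days, 20.7% and 20.3% on the soft matrix at 4 days, and 23.7% and 27.8% on the stiff matrix at 4 days. The ratio of CDH4 to CDH2 was 0.296 ± 0.0301, 0.397 ± 0.0183, 0.389 ± 0.000392 and 0.504 ± 0.0548 in the same order of conditions (SD, n = 2 each).

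CDH24, a type II cadherin that binds catenins, moved the other way. It fell from 15.9 and 15.2 FPKM to 9.23 and 8.68 FPKM on the soft matrix, and from 13.1 and 13.9 FPKM to 7.24 and 8.75 FPKM on the stiff matrix, without overlap between days. The log2 fold changes were -0.78 and -0.74 (standard error 0.142 each, edgeR adjusted p = 0.00778 and 0.00964). Its share of the family went from 13.7% and 14.2% on the soft matrix at 2 days to 4.62% and 6.54% on the stiff matrix at 4 days. Without stiff 4-day replicate 1 or 2 the stiff matrix value was -0.61 and -0.90, called in both. CDH18 and CDH20 were not called with all libraries. CDH18 was called on the soft matrix without either stiff 4-day library (0.73 and 0.71, edgeR adjusted p = 0.0146 for each), and on the stiff matrix it went from -0.05 to 0.94 as replicate 1 or 2 was left out.

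**Figure D3:**
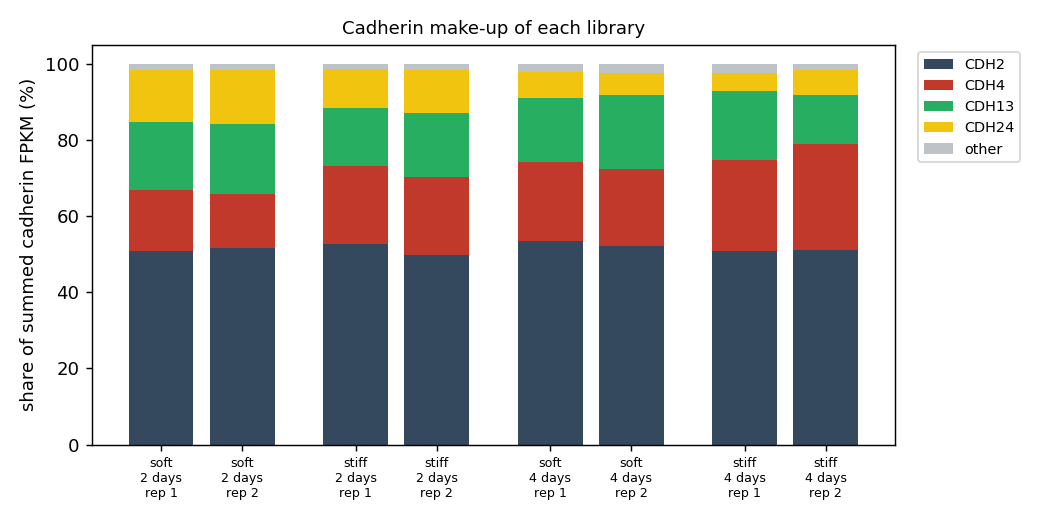
Share in percent of the summed FPKM of 23 cadherin genes (vertical axis from 0) in each of the 8 libraries, stacked by gene, with all cadherins beyond the named 4 as other. CDH2 takes about the same share throughout (49.8% to 53.4%), the CDH4 segment is smallest on the soft matrix at 2 days and the CDH24 segment shrinks at 4 days.

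Among 10 partners of cadherins at the junction, 7 were tested, none was called between the matrices, and 2 of 7 were called between days on the soft (27.4% of all genes) and 4 of 7 on the stiff matrix (27.6%). CTNNA1, the gene of alpha-catenin, had 113 to 152 FPKM and log2 fold changes with time of -0.0012 and 0.04 (standard errors 0.170 each). Its ratio to CTNNB1 on the soft matrix was 1.39 ± 0.0146 after 2 days and 1.17 ± 0.130 after 4 days (SD, n = 2 each). On the stiff matrix the days overlapped in this ratio, at 1.25 and 1.32 after 2 days and 1.28 and 1.07 after 4 days. CTNNAL1, the gene of alpha-catulin, a relative of alpha-catenin, rose from 38.6 and 43.3 to 87.4 and 77.4 FPKM on the soft matrix and from 46.1 and 41.8 to 85.4 and 108 FPKM on the stiff matrix. Its log2 fold changes were 1.03 and 1.15 (standard errors 0.161 each, edgeR adjusted p = 0.00491 and 0.00355). JUP, the gene of gamma-catenin (plakoglobin), rose on the stiff matrix from 6.50 and 7.19 to 8.98 and 10.1 FPKM (log2 fold change 0.49, standard error 0.151, edgeR adjusted p = 0.0457) and had a value of 0.25 on the soft matrix (adjusted p = 0.250).

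Among PLEKHA7, AFDN and VCL, which link the junction to the cytoskeleton, 1 was called with all libraries. PLEKHA7, which ties p120-catenin to microtubules, fell on the stiff matrix from 20.1 and 23.3 to 13.0 and 6.54 FPKM (log2 fold change -1.13, standard error 0.305, edgeR adjusted p = 0.0298) and had a value of -0.84 on the soft matrix (adjusted p = 0.0744). Without stiff 4-day replicate 1 or 2 the value of PLEKHA7 was -1.71 and -0.73 on the stiff matrix, and -0.86 and -0.87 on the soft matrix. AFDN, the gene of afadin, listed under its older symbol MLLT4, had values of -0.60 and -0.74 (edgeR adjusted p = 0.105 and 0.0579), both called without either stiff 4-day library, and VCL, the gene of vinculin, of -0.05 and -0.08 (adjusted p = 0.901 and 0.848). VCL had 72.3 and 38.8 FPKM in the stiff 4-day libraries, and its stiff matrix value was -0.60 without replicate 1 and 0.29 without replicate 2. CTNND1, the gene of p120-catenin, had only 74 to 84 counts at 2 days and 0 to 16 at 4 days (log2 fold changes -2.69 and -3.12, standard errors 0.779 and 0.821, edgeR adjusted p = 0.0377 and 0.0274). A read-through gene that shares exons with CTNND1 has a row of its own in the table, at 0 in every library, so these counts are uncertain. CTNNA1 and VCL share exon sequence with genes on the opposite strand, and the strand setting of the counting was not given in the sources used here. Without stiff 4-day replicate 1 the CTNND1 fit rested on a library with 0 counts, and its value is no bound.

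**Figure D4:**
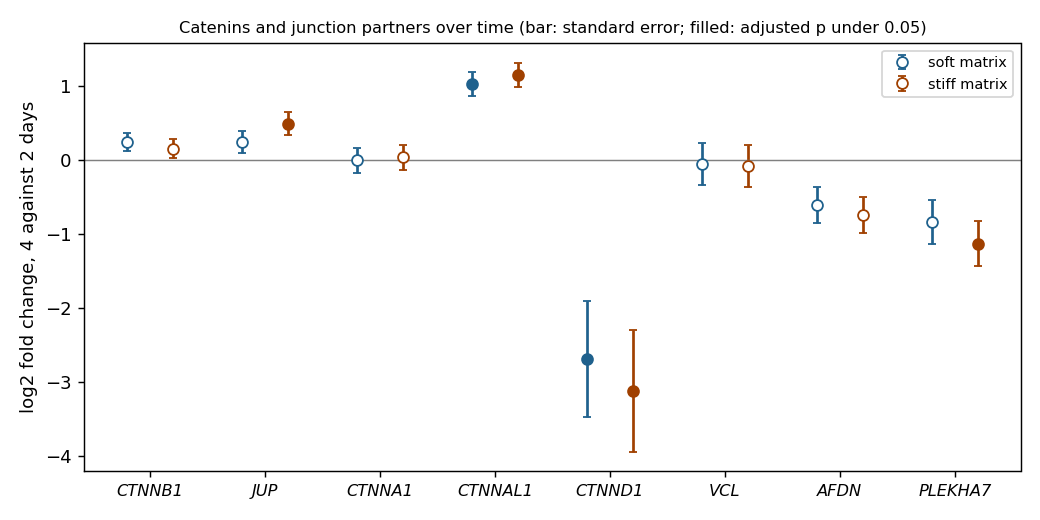
Log2 fold change of 4 against 2 days (vertical axis) for CTNNB1 and 7 junction partners on the soft and the stiff matrix, from the edgeR fit, with bars of 1 standard error and filled points for an adjusted p under 0.05. CTNNB1 and CTNNA1 lie near 0, CTNNAL1 is filled above 0 on both matrices, and the points of CTNND1, which rest on few counts, are the lowest.

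On the signalling side of beta-catenin, none of the listed genes was called between the matrices, and calls with time went in both directions. Of 9 genes of the destruction complex and inhibitors, which mark beta-catenin for degradation or block it, 1 was called higher and 1 lower on the soft matrix and 2 lower on the stiff matrix, 2 of 9 in each, beside 27.4% and 27.6% of all genes. AXIN1, the scaffold of the complex, fell on both (log2 fold changes -0.68 and -0.67, standard errors 0.134, edgeR adjusted p = 0.0101 and 0.0112), from 22.3 and 19.0 to 12.7 and 12.7 FPKM on the soft matrix. GSK3B, the kinase, rose on the soft matrix (0.70, edgeR adjusted p = 0.0498), and AMER1 fell on the stiff matrix (-0.79, edgeR adjusted p = 0.0458), a call that was lost without stiff 4-day replicate 2 (-0.52, adjusted p = 0.0570). GSK3B on the stiff matrix (0.51, edgeR adjusted p = 0.125) and AMER1 on the soft matrix (-0.52, edgeR adjusted p = 0.142) had the same sign and were not called with all libraries. Without stiff 4-day replicate 1 or 2, GSK3B had 0.13 and 0.80 on the stiff matrix. AMER1 had -0.53 and -0.54 on the soft matrix in the same fits. Of 8 nuclear partners, 3 were called on each matrix. LEF1 rose on both matrices (0.80 and 0.58, edgeR adjusted p = 0.0111 and 0.0350) and TCF7L1 fell on both (-0.54 and -0.60, edgeR adjusted p = 0.0279 and 0.0217). The remaining calls with all libraries were on 1 matrix only, with values of the same sign on the other. These were 0.22 for TCF7L2 on the stiff matrix (edgeR adjusted p = 0.323) and -0.87 for BCL9L on the soft matrix (edgeR adjusted p = 0.0579). Without stiff 4-day replicate 1 or 2, BCL9L had -0.88 and -0.89 on the soft matrix. No gene was called for the change of the stiffness effect between days. TCF7L2 rose on the soft matrix (0.60, edgeR adjusted p = 0.0254) and BCL9L, a coactivator, fell on the stiff matrix (-0.97, edgeR adjusted p = 0.0407), where it had -1.53 and -0.58 without stiff 4-day replicate 1 or 2 and was called in both.

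Of 12 Wnt target genes, 9 were tested, and 2 were called on the soft and 1 on the stiff matrix, beside 27.4% and 27.6% of all genes. AXIN2 was also counted among the destruction complex and inhibitors. DKK1, a secreted Wnt antagonist, rose from 217 and 228 to 467 and 438 FPKM on the soft matrix and from 274 and 249 to 566 and 546 FPKM on the stiff matrix (log2 fold changes 1.04 and 1.10, standard errors 0.133, edgeR adjusted p = 0.00284 and 0.00230). SP5 fell on the soft matrix from 1.41 and 1.13 to 0.476 and 0.431 FPKM (-1.46, standard error 0.318, edgeR adjusted p = 0.0145). On the stiff matrix SP5 had -0.77 and was not called (edgeR adjusted p = 0.109). AXIN2, the most general target of the pathway, had values of 0.02 and -0.19 and was not called with all libraries, and neither were CCND1 and MYC. On the stiff matrix AXIN2 had -0.75 without stiff 4-day replicate 1 and 0.19 without replicate 2. ZNRF3 had -0.49 and -0.60 and was not called with all libraries (edgeR adjusted p = 0.213 and 0.132). Without stiff 4-day replicate 1 or 2, ZNRF3 had -0.50 and -0.51 on the soft and -1.10 and -0.25 on the stiff matrix. Of the 9 tested targets, 6 had negative values on the soft and 7 on the stiff matrix.

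The genes whose log2 CPM followed a cadherin most closely over the 8 libraries were sought among 12164 or 12165 other genes, as a description in which the points share their libraries and depth. Being the highest of so many, these r values are large in part by selection. CDH10 had 6 counts or fewer in each 2-day library, and CDH11 had 1.84 and 0.966 FPKM in the stiff 4-day libraries. No r was computed without a library. CDH2 went with ARL6 (Pearson r = 0.983) and CCDC47 (r = 0.978), and CDH4 with FEM1A (r = 0.993) and VCP (r = 0.984). CDH10 went with GJA1, the gene of the gap junction protein connexin 43 (r = 0.980), and SERPINB9 (r = 0.979), and CDH11 with ERLIN1 (r = 0.995) and ARRDC4 (r = 0.994).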

How the data were processed

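RNA-seq of LX-2 cells was analysed from the deposited tables. Per the paper's methods and the submitters' processing notes, the authors trimmed reads with Trim Galore, mapped them to hg19 with STAR 2.7.1a and counted reads per gene with htseq-count; the gene annotation and the strand setting were not given in the sources used here. The authors deposited raw counts, which were tested, and FPKM, which were used for levels. The deposited FPKM were scaled by median-of-ratios size factors, which differed from scaling by total counts by up to 12.3% in a library.

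After filterByExpr by condition, 14570 of 25369 genes were left. With TMM scaling, 1 model of 4 conditions was fitted to all 8 libraries by edgeR 4.0.16 in R 4.3.3 (quasi-likelihood F test, Benjamini-Hochberg adjustment over all genes tested, cutoff 0.05), and standard errors were derived from the F statistic. DESeq2 1.42.0, limma 3.58.1, other scaling factors and filters, a replicate block and leaving out each library were alternatives. Leaving out the stiff 4-day libraries for genes of the lists was added after seeing the data.

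The 9 genes and all lists were chosen with earlier results of these data known. The text names all 9, the tested junction partners, the genes of other lists called in at least 1 comparison, and the 2 genes with the highest Pearson r with CDH2, CDH4, CDH10 and CDH11 among tested genes whose mean log2 CPM reached 1. AXIN2, ZNRF3, CCND1, MYC, CDH18, CDH20, COL1A1, COL1A2, COL3A1, TAGLN, PDGFRB, DES, LRAT, GRHL2 and TTR were named after their values were seen. Replicates are separate samples in the labels, and nothing says that same-numbered samples were grown together. Sequences are from RefSeq (GRCh38.p14), and gene positions from GENCODE on GRCh37.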

Additional observations from a re-analysis of the deposited data

How the results depend on the processing

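Leaving out a library changed the number of the 9 genes called to between 0 and 1 for stiff against soft at 2 days, 0 and 1 at 4 days, 0 and 2 averaged over days, 0 and 1 for the change of the stiffness effect, 0 and 6 for days on the soft matrix and 0 and 5 for days on the stiff matrix. Settings that moved a number of calls were DESeq2 (1 averaged over days), no scaling factors (1 for days on stiff), at least 10 counts in every library (1 for days on each matrix; CDH10 did not enter), separate fits (1 at 2 days, 6 for days on soft, 0 for days on stiff), and limma on log2(FPKM + 1) or log2(FPKM + 0.1), where CDH10 did not enter (1 for days on each matrix). With the replicate block, 1 gene was called for days on the stiff matrix and no other number of calls changed. All counts for days in this section include CDH6 and, where it entered, CDH10. Both were tested on account of their 4-day libraries, so these counts are not a result about the 9 genes. With all libraries in the main fit, 27.4% of all genes were called between days on the soft and 27.6% on the stiff matrix. The share of all genes called differed between fits, so a count from another fit cannot be set against these shares. Separate fits called 667 of all genes at 2 days and 0 for days on the stiff matrix. Shares without a stiff 4-day library stand in the results, and the ranges over all genes follow below. Same-numbered libraries had correlations of -0.49 to 0.08, so the numbers were not taken as pairs; with the stiff 4-day numbers crossed, chosen after seeing the data, 0 genes were called at 4 days and 2 for days on stiff.

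Some log2 fold changes, none of them called with all libraries, changed sign. Without scaling factors CTNNB1 had -0.015 at 2 days and -0.084 averaged, CDH11 -0.072 at 4 days and CDH2 -0.023 averaged; with at least 10 counts CTNNB1 averaged -0.0013. CDH11 at 4 days was -0.0060 by limma on log2(FPKM + 1), with or without the filter, -0.032 on log2(FPKM + 0.1) and -0.0013 with crossed pairs. The change of the stiffness effect was -0.072 for CDH6 with the block, and -0.014 for CDH6 and -0.29 for CDH10 by limma without a filter. Without 1 library, the ranges of values that changed sign were, at 2 days, -1.31 to 0.47 (CDH6), -0.047 to 0.044 (CDH13), and at 4 days, -0.14 to 0.074 (CDH2), -1.26 to 0.35 (CDH6), -0.51 to 0.42 (CDH11), -0.59 to 0.13 (CDH13), -0.11 to 0.045 (CTNNB1), and averaged over days, -0.80 to 0.12 (CDH6), -0.30 to 0.16 (CDH11), -0.30 to 0.0595 (CDH13), -0.031 to 0.044 (CTNNB1), and for the change, -0.92 to 1.07 (CDH6), -0.86 to 4.14 (CDH10), -0.42 to 0.51 (CDH11), -0.58 to 0.14 (CDH13), -0.16 to 0.0027 (CTNNB1), and for days on stiff, -0.21 to 0.51 (CDH13). The cause was not tested. Over all genes, the number called went from 347 to 7941 for days on the soft and 0 to 7826 on the stiff matrix, and from 0 to 667 at 2 days, 0 to 4676 at 4 days, 0 to 2968 averaged and 0 to 3139 for the change, the highest of each but the 2-day comparison without stiff 4-day replicate 1.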

Other observations

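Single genes of the marker lists were called between days, where 27.4% of all genes were on the soft and 27.6% on the stiff matrix. OCLN, the gene of the tight junction protein occludin, rose from 1.34 and 1.50 to 4.01 and 3.85 FPKM on the soft matrix and from 1.64 and 1.44 to 4.28 and 4.07 FPKM on the stiff matrix (log2 fold changes 1.49 and 1.45, standard errors 0.146 and 0.147, adjusted p = 0.00149 and 0.00165 by edgeR's quasi-likelihood F test, Benjamini-Hochberg adjusted). It was the only one of 4 tested epithelial markers, of 8 listed, that was called. Of 7 tested stellate and myofibroblast markers, 2 were called on each matrix, VIM and ACTA2, while COL1A1 (-0.47 and -0.57) and PDGFRB (-0.13 and -0.32) had negative values and were not called with all libraries. COL1A1 was called lower on both matrices without stiff 4-day replicate 1 (-0.49 on soft and -0.80 on stiff) and without replicate 2 (-0.50 and -0.39), and PDGFRB on the stiff matrix without replicate 1 (-0.60). VIM, the gene of the intermediate filament vimentin, rose on both matrices (1.12 and 0.96, edgeR adjusted p = 0.0120 and 0.0204), and its stiff 4-day libraries lay apart at 1858 and 2938 FPKM. Without replicate 1 or 2 of these libraries its stiff matrix value was 1.25 and 0.58, called in both. ACTA2, the gene of smooth muscle actin, rose from 5.14 and 4.94 to 9.27 and 10.3 FPKM on the soft matrix and from 4.32 and 4.37 to 6.64 and 8.81 FPKM on the stiff matrix (0.97 and 0.84, edgeR adjusted p = 0.00808 and 0.0142). TIE1, the called gene among 4 tested endothelial markers and a receptor gene known from endothelium, fell on both matrices (-0.56 and -0.64, edgeR adjusted p = 0.0223 and 0.0142). None of these markers was called between the matrices.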
